A study of Ovis aries with 2 samples.

Results

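The long arm of the sheep Y-chromosome carries the ampliconic region, and the windows described here are its CpG-dense parts: 1-kb windows between 8.6 and 25.9 Mb with at least 30 CpG sites. They were chosen by CpG number alone, so their methylation played no part in the choice. Of the 17299 windows of the arm, 459 (2.65%) met the rule, and these held 18899 of its 194410 CpG sites (9.72%). The material was lung from 1 male fetus, a Churro x Friesian F1 at 100 days of gestation, with 1 PacBio HiFi library and 1 ONT library, which read cytosine methylation on native long DNA molecules in different ways. There was no other group, no treatment and no second animal, so the platforms are a technical repeat and no p-value was taken over windows or sites. Lung is a mixture of cell types, and a window at an intermediate level cannot be told apart from a mixture of methylated and unmethylated cells.

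In mammals, most CpG sites carry a methyl group, and methylated CpGs are lost over time by mutation. Dense clusters of CpGs are therefore often CpG islands, which usually lie at gene starts and stay unmethylated. Recent repeats and duplicated sequence can be CpG-dense as well, and these are usually methylated. An ampliconic Y arm is built from repeated copies of the same segments and carries multicopy gene families such as TSPY, HSFY, RBMY, PRAME, ZNF280A and ZNF280B, which are known mainly for expression in the testis.

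The dense windows of the arm were mostly methylated. Their median level was 77.3% on PacBio (quartiles 72.7 to 80.7, range 3.28 to 90.8) and 67.9% on ONT (quartiles 63.5 to 71.6, range 1.64 to 83.4). The other windows of the arm with 5 to 29 CpG sites had medians of 54.1% and 45.4%, which is lower by more than the difference between the platforms. The median level went up step by step with the number of CpG sites. The medians were 46.9% on PacBio and 38.8% on ONT in windows with 5 to 9 CpG sites, 57.0% and 47.9% with 10 to 19, and 67.2% and 57.4% with 20 to 29. Windows with 30 to 49 CpG sites reached 77.2% and 67.8%, and those with 50 or more had 78.6% and 70.4%. The mean did not follow in this last class, with 60.1% and 52.9% against 75.5% and 66.1% in windows with 30 to 49, and its lower quartiles were 28.3% and 24.2%. The 43 windows of this class after the first annotated gene of an ampliconic family had means of 78.8% and 69.3%. At the edge of the rule there was no step, since windows with 28 or 29 CpG sites had medians of 73.6% and 63.0% and those with 30 or 31 had 75.2% and 65.4%. Dense windows of the pseudoautosomal region (PAR), the part of the Y that pairs with the X-chromosome, had medians of 83.2% and 72.6%, where reads of the X-chromosome may be included.

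Low methylation was rare among the dense windows and sat in a single place. Under 20% on both platforms were 15 windows (3.27%), against 0.785% of all arm windows with 5 or more CpG sites and 0.708% of those with 5 to 29. Of these 15, 7 had a depth under 0.5 or over 1.5 times the median of the arm, and without all windows of such depth 8 low windows remained (1.82%). Among the dense windows of the whole chromosome the share was 6.76%, with 7.18% in the PAR and 42.3% of the 52 dense windows between the PAR and the arm, outside the centromeric array. All 15 low windows of the arm lay between 8715001 and 8780000 of chromosome Y (1-based, ARS-UI_Ramb_v3.0), a span of 65 kb near its inner end. Of the 65 windows of the arm with 50 or more CpG sites, 14 were low (21.5%), against 1 of the 394 windows with 30 to 49 (0.254%). Of the 43 windows with 50 or more that lie after the first annotated gene of an ampliconic family, 0 were low. Position and CpG number were thus not separate in this contrast. Of the 1284 CpG sites in the low windows, 86.0% were under 20% on both platforms, against 1.93% of the 17615 sites in the other dense windows, a contrast largely fixed by the choice of low windows.

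**Figure D1:**
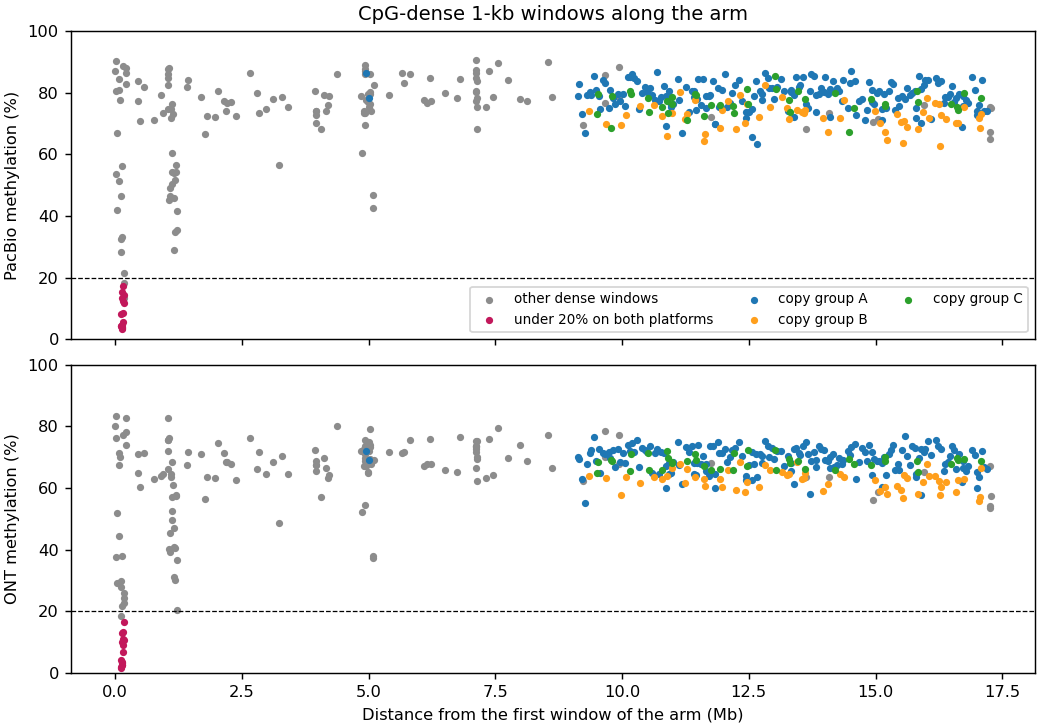
Methylation (%) of each of the 459 CpG-dense 1-kb windows on PacBio (top) and ONT (bottom) against distance from the first window of the arm in Mb; each point is 1 window, coloured by low level or by copy group, and the dashed line marks 20%. The 15 low windows form 1 column near the left end, a second group of lowered windows lies about 1 Mb further on, and from 18 Mb of the chromosome onwards the level stays high.

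The span of the low windows lies before the first annotated gene of an ampliconic family, a TSPY3 pseudogene that starts at 8878673. Up to that gene the sequence holds SHROOM2, a single-copy gene of the X-degenerate kind, and 2 long non-coding RNAs. So the arm as the rule draws it begins with X-degenerate sequence. The 37 dense windows before the TSPY3 pseudogene had a median of 28.3% on PacBio and 24.2% on ONT. The 422 dense windows after it had medians of 77.5% and 68.1%. None of these 422 was under 20% on either platform, and their lowest values were 28.99% and 20.3%.

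The low windows fell into 4 runs of adjacent dense windows. The first run, from 8715001 to 8721000, covers the annotated start of SHROOM2 (LOC132657142, minus strand, start at 8715993), which encodes an actin-associated protein that shapes cells. The window with that start held 90 CpG sites at 4.39% on PacBio and 1.64% on ONT. The pooled ONT calls of that window were 1.52% methylated (95% Wilson interval 1.33 to 1.73, counting error only). A long non-coding RNA on the other strand, LOC121818179, starts at 8717200, in a window with 100 CpG sites at 7.99% and 3.99%. The low level did not extend over the whole run, since the next windows along that RNA gene, up to 8721000, had 46.5% and 27.9%, 28.3% and 18.5%, and 32.5% and 29.8%. In the gene body of SHROOM2, between 8601001 and 8696000, the other 10 dense windows lay between 42.1% and 90.5% for PacBio, and between 29.1% and 83.4% for ONT. Depth was raised in both start windows, with medians of 59 and 56 PacBio calls and 166 and 141.5 ONT calls per CpG site against 40 and 89 over the arm. The ONT depth reached 193 in 1 window of the gene body, and whether reads of the X-chromosome copy were among those of any of these windows was not tested.

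The second run, from 8731001 to 8738000, held 525 CpG sites at 10.5% on PacBio and 7.48% on ONT. It contains the window with the most CpG sites of the arm, 121 between 8734001 and 8735000, at 3.28% and 2.42%. From 8734001 to 8738000 each of the 4 windows was under 5% on both platforms. The closest annotated start is that of the long non-coding RNA LOC132659063 at 8738973, which is 973 bp from the run. The fourth run, from 8779001 to 8781000, held 157 CpG sites at 13.4% and 13.7% and has no annotated gene. Depth in these 2 runs was near that of the arm, with medians of 39 and 41 PacBio calls and 92 and 88 ONT calls per CpG site.

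The third run, from 8762001 to 8769000, held the most CpG sites, 615 at 13.9% on PacBio and 15.4% on ONT, and has no annotated gene. By its CpG spacing it is a partial copy of the centromeric array. Copies were found by CpG spacing: 9 successive CpG sites whose 8 distances are identical, in either orientation. Of the 603 such stretches in this run, 287 (47.6%) also occur in the array, and 369 of its 615 CpG sites could be paired with sites there. Its windows from 8764001 to 8766000 were matched almost completely, with 120 of 120 and 92 of 93 CpG sites. The run also repeats within itself, since 30.9% of its CpG sites had another CpG site exactly 2503 bp away, against a median of 8.88% over lags of 20 to 3000 bp. None of the other 387 runs shared a stretch with the array, and neither did any of the 9726 arm windows with 9 to 29 CpG sites.

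The copy outside the array had far less methylation than its counterparts within it. The 369 paired CpG sites had 14.8% ± 12.3 (SD over sites) on PacBio and 15.1% ± 9.55 on ONT in the run. The same sites had 68.9% and 65.5% in the array, averaged over a median of 47 array copies each. Each of the 369 sites was lower in the run than the mean of its array copies, on both platforms. Across the array, the 118 dense windows spanned 51.1% to 82.2% with PacBio and 51.5% to 74.97% with ONT, so none of them reached down to the run. The median number of PacBio calls per CpG site was 17 at the paired sites of the run and 14 at those of the array, against 40 over the arm. ONT had 107 and 57. Whether reads were exchanged between the run and the array was not tested. The first window of the run, from 8762001 to 8763000, shares no stretch with the array and was also low, at 5.64% and 6.85%.

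**Figure D2:**
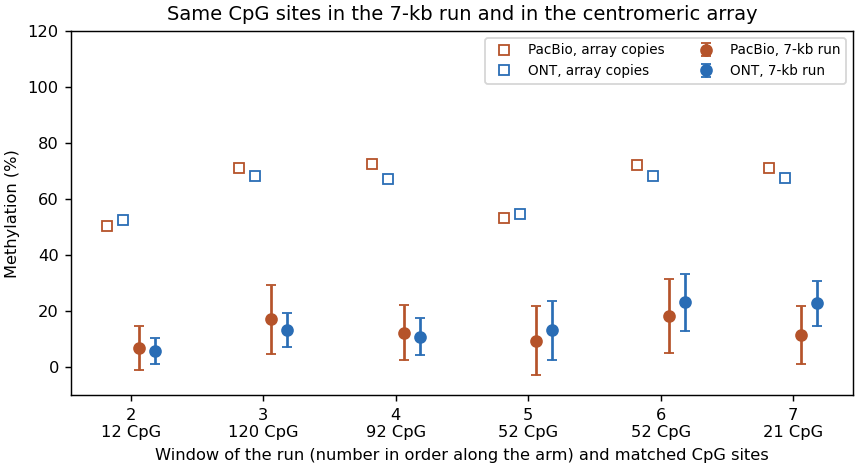
Methylation (%) of the CpG sites that pair between the 7-kb run and the centromeric array, for windows 2 to 7 of the run in order along the arm; filled points are means in the run with SD over sites, open squares are means over the array copies, shown without error. In each window and on both platforms the run lies under the array copies, with 6.88% against 50.6% on PacBio in window 2, 12.3% against 72.5% in window 4 and 18.3% against 72.1% in window 6.

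The runs and the sequence around them were followed out to 5 kb from the run centre. The 4 runs with a low window were split off by their level, so their low centre, 14.7% on PacBio and 11.2% on ONT over 500 bp, is fixed by that choice. Their level was 24.7% and 23.3% at 2 to 3 kb from the centre and 49.97% and 51.2% at 4 to 5 kb. The 384 other runs averaged 73.3% and 63.9% in the centre, 47.9% and 40.5% at 2 to 3 kb, and 49.8% and 42.4% at 4 to 5 kb. The density of CpG sites in the centre was 102 per kb in the low runs and 40.3 per kb in the others. At 2 to 3 kb it was 62.6 and 12.1 per kb. The low runs are 2 to 7 kb long and most others 1 kb. At that distance the levels therefore compare mainly dense sequence with flanks. Between the low runs methylation returned to a high level. The 42 windows with 5 to 29 CpG sites inside the 65-kb span had medians of 65.9% and 61.5%, and none was under 20%.

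**Figure D3:**
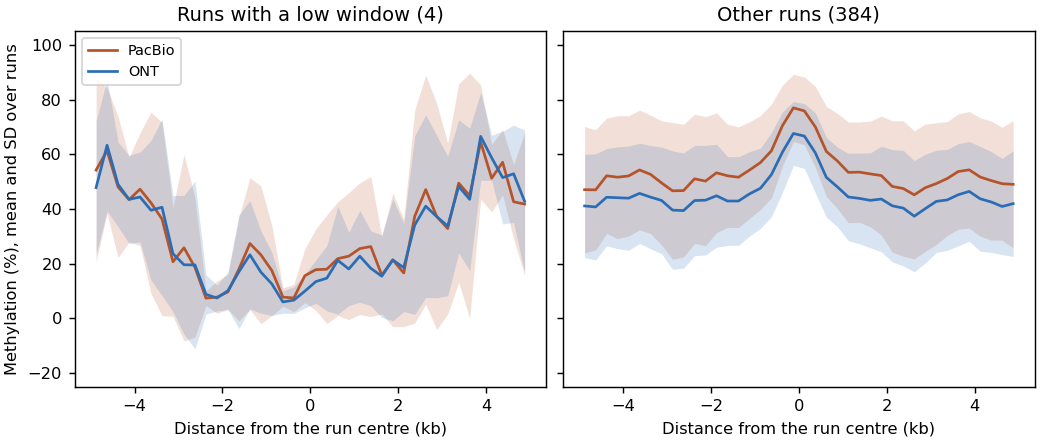
Mean methylation (%) in 250-bp steps against distance from the run centre in kb, for the 4 runs that hold a low window (left) and the 384 other runs (right); lines are means over runs and bands are SD over runs. The low runs, 2 to 7 kb long, form a valley several kb wide. The others, mostly 1 kb long, form a peak about as wide as the dense window itself. On PacBio this peak falls from 73.3% in the central 500 bp to 47.9% at 2 to 3 kb.

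Besides the low windows, 25 dense windows had a mean of the platforms between 20 and 55%, of which 10 lay before the first ampliconic family gene and 12 between 9.6 and 9.9 Mb. The 25 dense windows of that stretch had medians of 54.4% on PacBio and 57.1% on ONT. Its 256 windows with 5 to 29 CpG sites were lowered too, with medians of 36.7% and 31.8% against 54.3% and 45.5% in the rest of the arm. By CpG spacing, 17 of the 25 dense windows between 9.6 and 9.9 Mb lie in a pair of mirrored copies. CpG sites from 9654698 to 9729990 read in the other orientation from 9752303 to 9827576, with 1277 of 1284 sites of the left copy paired and 22.3 kb between the copies. A pseudogene of TSPY1, LOC132658890, overlaps part of the right copy, and the dense windows of the left copy lie in no annotated gene.

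The mirrored copies differed in methylation although their CpG sites match. Over all 1277 pairs the left copy had 47.1% and the right copy 32.7% on PacBio, with 41.0% and 29.8% on ONT. The left site was higher in 952 pairs on PacBio, in 928 on ONT and in 795 on both. The 355 pairs within dense windows on both sides differed by 14.4 and 12.9 points in the same direction. The size changed along the copy. Over the 114 pairs in the dense windows of group K, 24 kb from the inner edge, the left copy had 74.6% against 47.6% on PacBio and 65.4% against 37.9% on ONT, and all 114 were higher on the left on ONT. At the outer end, outside the dense windows, the difference was wider, with 43.6 points on PacBio and 41.8 on ONT over the 40 pairs of the 2.5-kb bin at 71.3 kb. In the 81 pairs of the dense windows of group J, in the bin at 43.8 kb, the order was the other way, with 47.1% against 55.7% on PacBio and 42.0% against 58.0% on ONT. The median depth was 37 PacBio and 82 ONT calls per CpG site in the left copy and 32 and 71 in the right copy. The differences of the pairs on PacBio followed those on ONT with a Pearson r of 0.659 over 1277 pairs, which share reads with their neighbours. How the aligners placed reads between the copies was not tested.

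**Figure D4:**
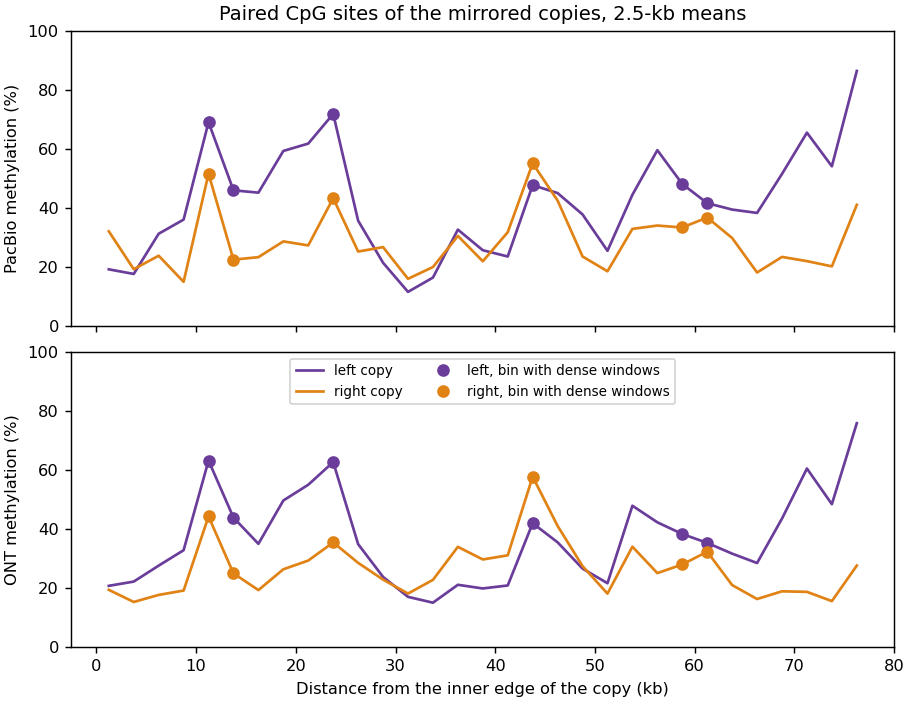
Mean methylation (%) of paired CpG sites in 2.5-kb bins of the left (purple) and right (orange) mirrored copy against distance from the inner edge in kb, on PacBio (top) and ONT (bottom); points mark bins that hold pairs in dense windows, and no error is drawn. The left copy is higher in most bins on both platforms, by 28.6 points on PacBio in the bin at 23.8 kb and 43.6 in the bin at 71.3 kb, and the right copy is higher in the bin at 43.8 kb, by 7.38 points on PacBio and 15.8 on ONT.

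Outside these places only 3 dense windows were at an intermediate level. These were 11832001 to 11833000, with 56.6% on PacBio and 48.6% on ONT, and the adjoining windows from 13680001 to 13682000, with 42.5% and 37.1% and then 46.9% and 37.9%. The first of them had 79 PacBio calls per CpG site, above the arm's 40.

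The spacing of the dense windows changed along the arm. The 459 windows formed 388 runs, of which 344 were single windows and 35 were pairs. The distance between successive runs had a median of 29 kb (quartiles 14 to 43, range 1 to 546). Up to 11 Mb the median distance was 19 kb (2 to 256), with 37 windows before 9 Mb, 32 from 9 to 10 Mb and 12 from 10 to 11 Mb. From 11 to 18 Mb dense windows were sparse, with 12 per Mb (5 to 26 in single megabases) and a median distance of 41 kb. From 18 Mb on they were frequent, with 34 to 40 in each megabase up to 25 Mb, a median distance of 23 kb (quartiles 15 to 35) and a longest distance of 89 kb. The widest distances without a dense window were 546 kb from 12006001, 504 kb from 17220001 and 465 kb from 12978001.

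Most dense windows shared a stretch of CpG spacing with another dense window. Windows linked by such stretches, directly or through other windows, fell into 23 copy groups with 379 windows (82.6%). Members of a group therefore need not all share a stretch, nor match over their whole length. Group A held 188 windows, group B 60 and group C 42, and from 18 Mb on these 3 groups made up 280 of the 294 dense windows. Levels varied little within the 3 largest groups. Group A had 79.0% ± 4.53 on PacBio and 69.4% ± 3.99 on ONT (SD over 188 windows). Group B was lower, with 72.4% ± 4.17 and 62.5% ± 3.06 over 60 windows, and group C had 76.8% ± 3.49 and 68.4% ± 2.06 over 42. All 294 dense windows from 18 Mb on had an SD of 5.14 points on PacBio and 4.74 on ONT. Smaller groups could vary more, with an SD of 18.7 points on PacBio over the 4 windows of group K and 11.4 over the 5 of group I, both in the mirrored copies described above. Copies may share reads that fit several places, which would draw their values together, and this was not tested. Of the 15 low windows, 4 were in a group, the one formed within the run that copies the centromeric array, and 11 were in none.

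In the 3 largest groups the level could also be followed at single CpG sites over copies. The commonest stretch of group A occurs 56 times, 32 in one orientation and 24 in the other, that of group B 45 times (27 and 18) and that of group C 40 times (20 and 20). Of these, 47, 27 and 25 lie within 1 dense window, and the values below cover all occurrences. In group B the fifth CpG of the stretch had 22.2% ± 9.53 on PacBio and 11.6% ± 3.597 on ONT over 45 copies. The first CpG of the same stretch had 94.0% ± 2.62 and 85.3% ± 3.66. On ONT these did not overlap, since the fifth CpG reached at most 21.1% in any copy and the first was at least 76.4%. In group A the first 7 CpG sites averaged 89.9% to 94.7% on PacBio, and the eighth and ninth had 65.3% ± 13.7 and 66.9% ± 11.5, with single copies of the eighth from 35.8% to 92.7%. In group C the fifth CpG was the lowest, with 59.3% ± 11.003 on PacBio and 58.4% ± 8.72 on ONT over 40 copies. Some sites differed between the platforms, such as its first CpG, with 92.0% ± 4.58 on PacBio and 68.3% ± 5.46 on ONT, and the fourth CpG of group B, with 78.9% ± 8.56 and 52.8% ± 6.19.

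**Figure D5:**
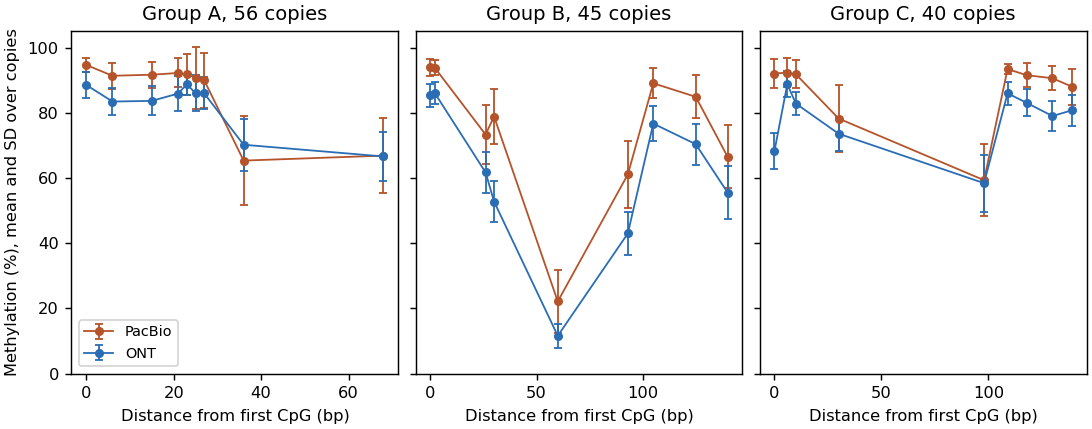
Methylation (%) of each CpG of the commonest stretch of copy groups A (56 copies), B (45) and C (40) against distance from the first CpG in bp; points are means over copies and bars are SD over copies. The fifth CpG of group B is the lowest on both platforms, with 22.2% on PacBio and 11.6% on ONT, while the first CpG of group C is high on PacBio (92.0%) and lower on ONT (68.3%).

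The gene starts that fell in dense windows were mostly those of TSPY3 copies. Of the 207 annotated genes of the arm, 22 (10.6%) started inside a dense window, where dense windows are 2.65% of all windows. In all, 26 had their start in a dense window or within 1 kb of one. Of these 26, 20 were copies of TSPY, a family of testis-specific proteins, most of whose copies here are annotated as pseudogenes. The 207 genes include 23 TSPY3 and 52 TSPY1 copies. TSPY3 had 15 of its 23 copies among the 26, and TSPY1 had 5 of its 52. All 5 protein-coding TSPY3 copies were among them, in 1 copy group, and their start windows were methylated, with 75.3% ± 4.85 on PacBio (71.1 to 81.7) and 64.3% ± 1.89 on ONT (62.8 to 67.6). Of the 18 TSPY3 pseudogenes 10 were among them, and of the 52 TSPY1 pseudogenes 5. Over all 20 the start windows covered 66.5% to 84.1% with PacBio and 56.0% to 71.8% with ONT, so protein-coding copies and pseudogenes overlapped. ZNF280B, a family of zinc finger genes with 27 protein-coding copies on the arm, had 1 such start (LOC132659042), at 75.2% and 71.9%. A window 956 bp from the start of RBMY (LOC132659047), which encodes an RNA-binding protein of germ cells, had 75.2% and 57.3%. None of the 12 protein-coding and 14 pseudogene copies of HSFY, a heat shock factor family, had a dense window within 1 kb.

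SRY and EIF1AY lay away from the dense windows. The start of SRY, the sex-determining gene, lies in a window with 20 CpG sites at 5.03% on PacBio and 8.67% on ONT, and the nearest dense window is 19231 bp away. EIF1AY, a translation initiation factor gene, starts in a window with 15 CpG sites at 54.2% and 52.7%, with the nearest dense window 12523 bp away. Altogether 68 dense windows (14.8%) overlapped an annotated gene, against 17.7% of all windows of the arm.

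The platforms ranked the dense windows alike, with PacBio higher. PacBio exceeded ONT by 9.03 ± 4.09 points (SD over 459 windows) and was higher in 446 of them (97.2%). The Pearson r was 0.969 and the Spearman rho 0.831 over 459 windows, which are not independent, and r was 0.929 without the low windows. In the 15 low windows the difference was 1.41 ± 1.84 points, and in the others 9.29 ± 3.90. The widest difference was between 22301001 and 22302000, a group A window with 80.5% on PacBio and 58.0% on ONT. In the opposite direction, the last window of the run that copies the array, from 8768001 to 8769000, had 13.5% and 24.2%. In the 13 windows with ONT higher, the median PacBio depth was 22 calls per CpG site, against 38 in the windows with PacBio higher.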

How the data were processed

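CpG methylation of 1 fetal lung was analysed from 1 PacBio HiFi and 1 ONT library of the sheep Y-chromosome (ARS-UI_Ramb_v3.0). For PacBio, the authors called methylation with Primrose, aligned with pbmm2 and deposited a modelled percent per CpG site with read counts from pb-CpG-tools. The ONT reads were basecalled in Dorado and aligned in Winnowmap by the authors, who deposited counts of methylated and unmethylated calls per strand from modbam2bed, with calls between 20% and 80% probability left out, a percent, and a score for the share of reads called. The deposited score was not used here. Reads that fit several copies may be placed differently by the 2 aligners.

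Windows, runs, copy groups and profiles were computed in Python 3.11.15 with pandas 2.3.3 and NumPy 2.4.6, and tested on simulated data. The value of a window is the mean over its CpG sites, and both strands were added on ONT. Of the 372890 CpG sites of the chromosome, 0 had under 5 calls. Median depth on the arm was 40 PacBio and 89 ONT calls per CpG site. A run is a row of adjacent dense windows. Windows were linked when they shared 9 successive CpG sites with identical distances, at least 4 of them different. A copy group is a set of windows joined by a chain of such links. Gene names and strands came from the study's annotation, matched to RefSeq by start and end. Named windows were those with the most CpG sites, every run with a low window, the highest windows and those with the widest platform differences, unusual depth or an intermediate level. The match to the centromeric array and the mirrored copies were examined after their values were seen. The members and lists were chosen with earlier results of these data known. No chance test was made, and sequence of the windows was not used here.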

Additional observations from a re-analysis of the deposited data

How the results depend on the processing

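The alternative settings gave 51 values to set against a main result. Of these, 39 stayed within the spread or, for a count, within 1.5 times, and 12 moved further. The spread was an SD of 6.66 points between platform medians for a level and 4.09 points over windows for the platform difference. For the share of low windows it was a Wilson interval of 1.99 to 5.32%, which treats windows as independent though they are not. Some of the 39 could not move, since settings for ONT calls leave PacBio unchanged. Only the platform difference could reverse a direction, and 0 of its values did. The median PacBio level was 84.8% with the median over sites in place of the mean. With ONT calls between the thresholds counted as unmethylated, the median ONT level was 57.4% and the platforms differed by 18.8 points. A minimum of 25 CpG sites gave 754 windows in 629 runs with 1.99% low, and a minimum of 40 gave 197 windows in 170 runs with 7.61% low. The share of low windows was 1.96% with a limit of 10%, and 1.82% without the 19 windows whose depth was under 0.5 or over 1.5 times the median of the arm, of which 7 were low. Without the windows before the first gene of an ampliconic family, which was chosen after seeing the data, the share was 0%. No paired analysis was possible because each platform has 1 library and no group has replicates. In the run from 8762001 to 8769000, PacBio had a median of 18 calls per CpG site, which limits its precision.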
